A study of Mus musculus with 4 samples.

Results

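Translation initiation factor genes were taken as every gene symbol that starts with Eif followed by a digit from 1 to 6, with the Y-linked Eif2s3y left out. They were 55 of the 35976 symbols in the count files, and 53 of them had enough reads to be tested. The members were measured by bulk RNA-seq in mouse double-positive (DP) thymocytes, developing T cells that carry both CD4 and CD8a, sorted from thymus as CD24+ and TCRb-. Control libraries came from Cxxc1 +/+ :Lck-cre mice and knockout (KO) libraries from Cxxc1 F/F :Lck-cre mice, with 2 libraries per genotype. Lck-cre is a transgene that drives Cre recombinase in T-lineage cells, and both genotypes carried it. Cxxc1 encodes a protein that binds unmethylated CpG DNA and works with the SETD1 histone H3 lysine 4 methyltransferases. The labels used here give no age, sex or animal for any library, so a p-value here reflects the spread among 4 libraries, which may be technical.

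Initiation is the step of protein synthesis at which the small ribosomal subunit is loaded with initiator tRNA, brought to the capped end of an mRNA and moved to the start codon. eIF2 carries the initiator tRNA, eIF3 is the large scaffold on the small subunit, the eIF4 factors recognise the cap and unwind the leader, eIF1, eIF1A and eIF5 choose the start codon, and eIF5B joins the large subunit. Cells tune this step mainly by phosphorylating the alpha subunit of eIF2 and by the 4E-binding proteins, which hold the cap-binding factor eIF4E. In the thymus, cells that have passed the pre-TCR checkpoint grow and divide before they become small resting DP cells with a low rate of protein synthesis.

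Levels are CPM, counts divided by the library total and multiplied by 1000000, scaled between libraries by the TMM method, and a log2 fold change is KO over control with its standard error (SE). Total counts ranged from 12150508 in control 1 to 36243182 in KO 1, with 83735 to 324960 of them on members. Cxxc1 itself stood at 111 and 53.5 CPM in control 1 and control 2 and at 35.7 and 39.4 CPM in KO 1 and KO 2 (log2 fold change -1.12 ± 0.34, edgeR, adjusted p = 0.199), so the targeted gene was lower in both KO libraries without passing the test. The labelled cell type was checked on a list of 12 DP-stage genes, all of which were detected above 1 CPM in every library. Of these, 0 rose and 3 fell in the KO (Cd4, Cd8a and Dntt). The summed level of a list of 11 double-negative (DN) thymocyte genes, which mark the preceding stage, was 839 and 530.2 CPM in controls, against 3233 and 1605 CPM in KO 1 and 2. Of the 9 DN genes tested, 4 rose (Il2ra, Il7r, Notch3 and Dtx1) and 0 fell, and Spi1 was at 0 in control 2 and KO 2. Most of the DN sum was Notch1, which was not called, with 653 and 387 CPM in controls and 2313 and 1084 CPM in KO 1 and 2. Cd44 of the same list lay lower in both KO libraries, with 30.3 and 35.2 against 11.7 and 15.003 CPM, and was not called (-1.30 ± 0.32, edgeR, adjusted p = 0.124). The DP-stage genes summed to 13482 and 17481 CPM in controls and to 6217 and 9247 CPM in KO 1 and 2. Of 6 erythroid genes 1 rose, Hba-a1, and the erythroid sum was 8.66 to 14.0 CPM in controls and 26.2 to 38.0 CPM in KO libraries. Lists of macrophage and dendritic cell, B cell and stromal genes held 0 called genes, with 1, 0 and 2 at an unadjusted p below 0.05. Fewer cells of a type and less RNA per cell cannot be told apart in such bulk samples.

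No initiation factor gene passed the test for a change in the KO, and most had their highest value in KO 1. Of the 53 tested members, 0 were called at an adjusted p below 0.05, against 0.451% of all genes tested (92 of 20389; 0.27% higher and 0.181% lower; quasi-likelihood test of edgeR with Benjamini-Hochberg adjustment). At an unadjusted p below 0.05 there were 5 members, or 9.43%, against 13.9% of all genes. These 5 were Eif3e, Eif3l, Eif2ak2 and Eif2ak4, with higher KO values (background 6.97%), and Eif4e3, with lower ones (background 6.91%). DESeq2 called 3 members, Eif3e and Eif2ak4 as higher and Eif4e3 as lower, against 4.79% of all genes (2.21% higher and 2.58% lower).

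The point estimates leaned upwards. The log2 fold change was above 0 for 42 of the 53 tested members, or 79.2%, against 47.6% of all genes tested, and the median was 0.34 against -0.04. That count was 40 with DESeq2-style (RLE) scaling and 43 with library totals only. Both KO libraries lay above both controls for 19 members (35.8%, against 22.8% of all genes) and below both for 3 (5.66%, against 24%). The remaining 31 members overlapped between genotypes.

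Much of the lean came with 1 library. KO 1 was the highest of the 4 libraries for 40 of the 53 tested members, or 75.5%, against 25% of all genes. Members took 0.689% and 0.693% of counts in the controls, 0.897% in KO 1 and 0.729% in KO 2. The median log2 difference from the control mean was 0.55 in KO 1 and 0.06 in KO 2. Without KO replicate 1 the median log2 fold change of the members was 0.07, with 31 above 0, and without KO replicate 2 it was 0.55, with 47 above 0. Of the 2 KO libraries, KO 1 also held the higher summed level of DN genes and the lower summed level of DP-stage genes compared with KO 2. The part of these marker differences in the members' values was not tested.

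**Figure D1:**
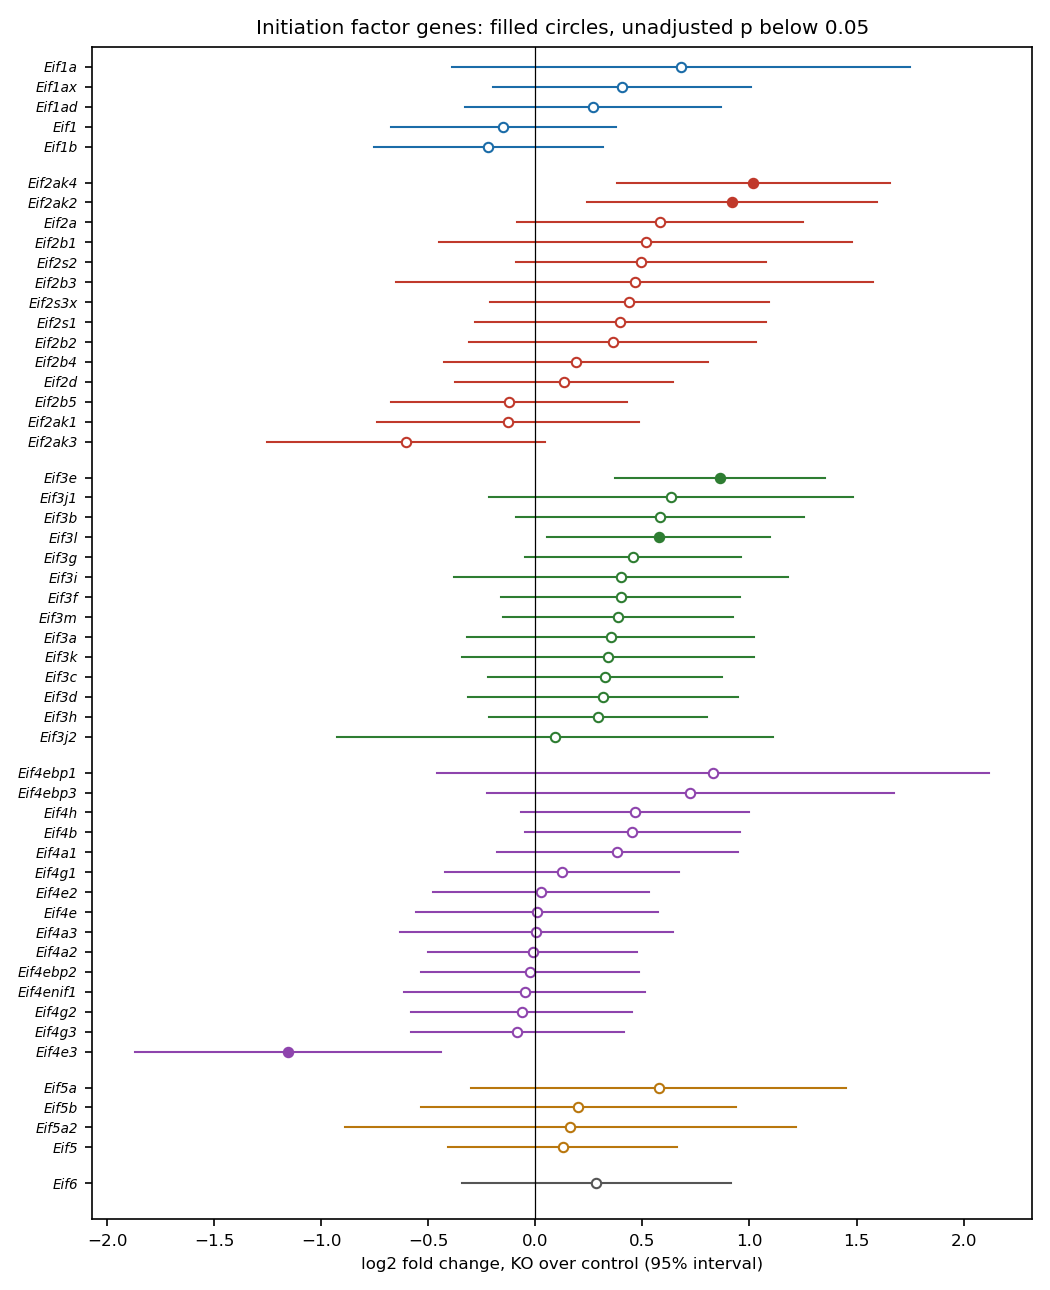
Log2 fold change (KO over control, x axis) of the 53 tested members, grouped by factor, with 95% intervals from the fitted model. Filled circles mark the 5 members with an unadjusted p below 0.05, and all 14 eIF3 circles lie to the right of 0.

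The promoters of 3 of those 5 members are shown because Cxxc1 binds CpG dinucleotides, which are in capitals. Eif3e and Eif4e3, the others of the 5, are not shown because the RefSeq promoter table used here held no entry for them. Each sequence is the 250 bases before a transcription start, 5′ to 3′ on the gene's strand, from RefSeq on GRCm38.p6. Eif2ak4 has 2 windows in that table, and the one shown belongs to a start inside the RefSeq gene span, so its last bases lie within the gene.

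Eif2ak2, chr17:78882573-78882822, minus strand: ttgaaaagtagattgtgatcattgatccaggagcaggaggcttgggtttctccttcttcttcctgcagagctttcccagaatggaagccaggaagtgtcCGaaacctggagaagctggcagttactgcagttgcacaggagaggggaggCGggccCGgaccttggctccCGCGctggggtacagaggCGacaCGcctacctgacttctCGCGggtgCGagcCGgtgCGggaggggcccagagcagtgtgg
Eif2ak4, chr2:118388367-118388616, plus strand: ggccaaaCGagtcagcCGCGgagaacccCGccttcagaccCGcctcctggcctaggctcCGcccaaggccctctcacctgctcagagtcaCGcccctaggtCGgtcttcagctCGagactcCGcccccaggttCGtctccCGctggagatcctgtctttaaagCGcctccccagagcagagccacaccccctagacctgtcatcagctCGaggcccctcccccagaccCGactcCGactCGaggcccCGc
Eif3l, chr15:79074973-79075222, plus strand: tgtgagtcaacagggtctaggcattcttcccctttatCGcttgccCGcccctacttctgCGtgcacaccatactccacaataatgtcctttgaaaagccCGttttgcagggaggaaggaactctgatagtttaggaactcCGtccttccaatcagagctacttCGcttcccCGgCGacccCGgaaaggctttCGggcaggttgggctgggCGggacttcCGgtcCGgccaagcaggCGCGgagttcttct

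These stretches of 250 bases hold 12, 18 and 15 CpG dinucleotides. The full windows used below, which add 50 bases after the start, hold 17, 22 and 20 for Eif2ak2, Eif2ak4 and Eif3l. Of the 55 members, 43 matched the RefSeq promoter table, whose windows run from 250 bases before to 50 after a start. Taking the window nearest the 5′ end of each gene, members had a median of 24 CpG dinucleotides (range 5 to 50), against 7 over all 32851 windows (range 0 to 67). The E-box CACGTG, the preferred site of Myc and Max and the same on both strands, occurred in 8 of the 43 windows (18.6%), against 7.15% of all windows. The 32851 windows belong to 27025 genes, so some genes count more than once, and they were not matched for CpG or expression. Over all 56 windows of the members the CpG median was also 24, and 12 windows (21.4%) held an E-box. Each such E-box holds 1 CpG, and the windows of Eif4g1 and Eif5a2 held 2 of them. The 8 genes with an E-box in this window were Eif1b, Eif3a, Eif3f, Eif3k, Eif4a1, Eif4g1, Eif4h and Eif5a2. Their log2 fold changes ran from -0.22 for Eif1b to 0.47 for Eif4h. Eif4e and Eif5a held the E-box only in other windows, 1 of 2 for Eif4e and 3 of 6 for Eif5a. A match describes the letters only.

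The eIF1 group, which guards start codon choice, had estimates on both sides of 0, and no member passed the test. Whether its genes differed from each other was not tested. Eif1, the fidelity factor itself, had 164 and 170.5 CPM in control 1 and 2, against 172 and 129 CPM in KO 1 and 2 (log2 fold change -0.15 ± 0.23, adjusted p = 0.856). Its close paralog Eif1b had 62.0 and 69.3 CPM in controls, against 60.4 and 52.3 CPM in KO libraries (-0.22 ± 0.24, adjusted p = 0.761), so that both KO libraries lay below both controls. eIF1A, which binds beside eIF1 on the small subunit, is encoded by a pair of genes. X-linked Eif1ax had 40.8 and 40.5 CPM in controls, against 62.1 and 45.6 CPM in KO libraries (0.41 ± 0.27), without overlap. Eif1a had 9.08 and 26.1 against 33.8 and 23.1 CPM (0.68 ± 0.47), where the gap between the controls exceeded the difference between the genotype means. Eif1ad, a nuclear protein with an eIF1A domain, had 0.27 ± 0.26.

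The 3 subunits of eIF2 all had point estimates above 0, and KO 1 was the highest library for each. Eif2s2, the beta subunit, had 81.6 and 100.7 CPM in controls, against 152 and 105 CPM in KO libraries (0.49 ± 0.26, adjusted p = 0.444), and was the one whose genotypes did not overlap. Eif2s1, which encodes the alpha subunit that the stress kinases phosphorylate, had 74.4 and 84.0 against 135 and 73.3 CPM (0.40 ± 0.30). Its KO 2 value lay below both controls. Eif2s3x, the X-linked gamma subunit gene, had 56.2 and 40.3 against 77.2 and 53.2 CPM (0.44 ± 0.29). Of the 50-base words in its transcripts in GENCODE M21, 34.6% also occur in Gm2223, whose reads could be counted with it.

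eIF2B recharges eIF2 with GTP, and 0 of its 5 subunit genes passed the test. The regulatory subunit gene Eif2b2 had 24.4 and 36.1 CPM in controls, against 37.3 and 40.5 CPM in KO libraries (0.36 ± 0.30), and Eif2b4 had 28.8 and 31.8 against 36.5 and 32.6 CPM (0.19 ± 0.27). These were the 2 of 5 eIF2B genes without overlap, beside 22.8% of all genes with both KO libraries above both controls. The catalytic subunit gene Eif2b5 had 74.8 and 63.1 against 70.7 and 55.9 CPM (-0.12 ± 0.24). Eif2b1 and Eif2b3 had 0.52 ± 0.43 and 0.46 ± 0.49, with levels between 7.11 and 23.7 CPM. Of 2 factors reported to deliver tRNA without eIF2, Eif2a had 35.9 and 25.1 CPM in controls, against 50.8 and 40.3 CPM in KO libraries (0.58 ± 0.30, adjusted p = 0.431), and Eif2d had 0.13 ± 0.23.

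The 4 kinases of eIF2 alpha ranged from -0.60 to 1.02 in log2 fold change, and none passed the test. They share one target site but sense different stresses. Eif2ak4 (chromosome 2, 118388583 to 118475234 on GRCm38), which encodes GCN2, the sensor of uncharged tRNA, had 24.2 and 34.9 CPM in control 1 and 2, against 63.6 and 56.3 CPM in KO 1 and 2. Both KO libraries were above both controls, with a log2 fold change of 1.02 ± 0.28 (edgeR, adjusted p = 0.174). Eif2ak2 (chromosome 17, 78850504 to 78882572), which encodes PKR, the sensor of double-stranded RNA, had 25.0 and 38.1 CPM in controls, against 51.7 and 67.7 CPM in KO libraries. KO 2 was here the highest library, and the log2 fold change was 0.92 ± 0.30 (edgeR, adjusted p = 0.23).

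The other two kinases had estimates below 0. Eif2ak3, which encodes PERK, the sensor of unfolded protein in the endoplasmic reticulum, had 100.04 and 174 CPM in controls, against 83.1 and 97.6 CPM in KO libraries (-0.60 ± 0.29, adjusted p = 0.397; -0.15 without control replicate 2 and -0.95 without control replicate 1). The KO libraries were below both controls, though KO 2 was close to control 1. Eif2ak1, which encodes HRI, the haem-regulated kinase, had 51.2 and 70.5 against 63.2 and 48.4 CPM (-0.13 ± 0.27; 0.12 without control replicate 2) and overlapped. Whether the kinases differed from each other was not tested. Summed over the 4 genes, the kinases came to 200.4 and 318 CPM in controls, against 262 and 270.0 CPM in KO libraries, with both KO sums between those of the controls. DESeq2 called Eif2ak4 (0.99, adjusted p = 0.0438) and not Eif2ak2.

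**Figure D2:**
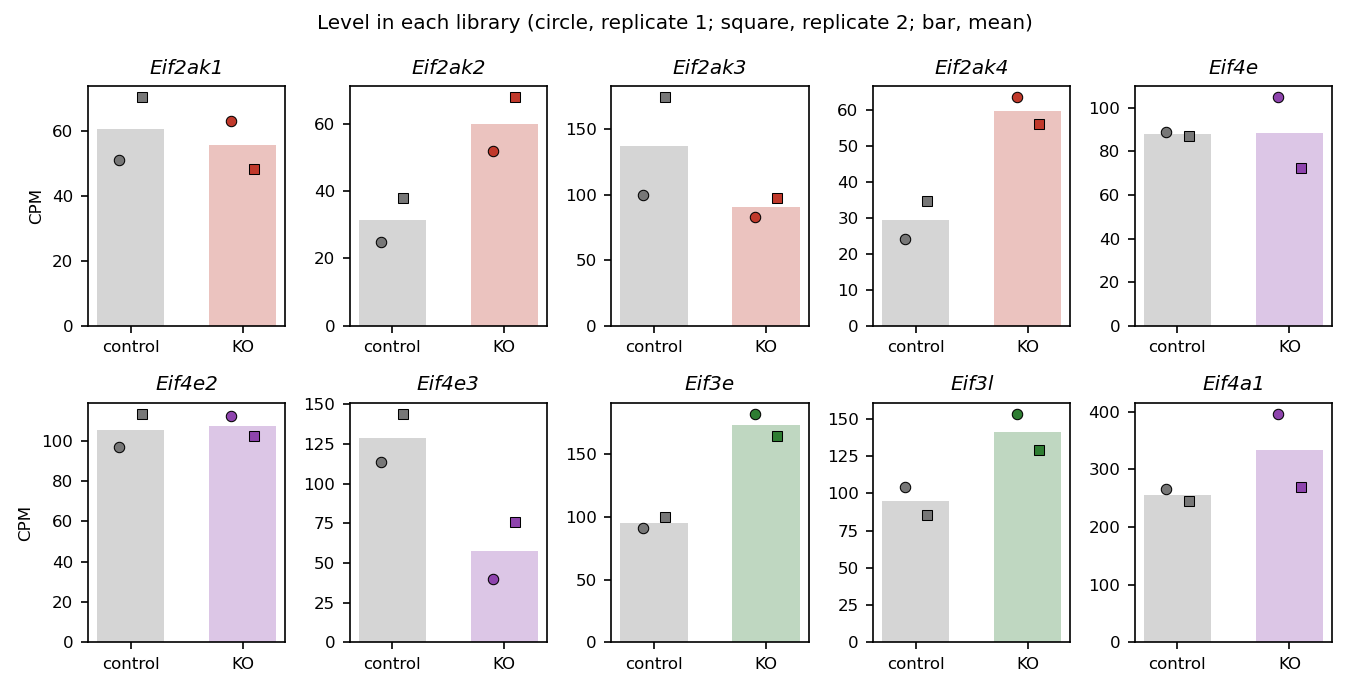
CPM of the 4 eIF2 alpha kinase genes, the 3 tested cap-binding genes, Eif3e, Eif3l and Eif4a1 in each library; each panel has its own axis from 0, bars are means, circles replicate 1 and squares replicate 2. Eif2ak2, Eif2ak4, Eif3e, Eif3l and Eif4a1 lie higher in both KO libraries than in either control, and Eif4e3 and Eif2ak3 lie lower in both.

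All 14 eIF3 genes had a log2 fold change above 0, from 0.09 for Eif3j2 to 0.86 for Eif3e, with a median of 0.39, and none passed the test. This held under RLE scaling and library totals, while without KO replicate 1 it was 9 of 14, with a median of 0.17. KO 1 was the highest library for each of the 14. Both KO libraries lay above both controls for 7 of them, Eif3c, Eif3e, Eif3f, Eif3g, Eif3h, Eif3l and Eif3m, or 50%, against 22.8% of all genes. That number was 6 under RLE scaling and 8 with library totals.

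The core of eIF3 is an octamer of PCI- and MPN-domain proteins, and its 8 genes had a median of 0.37. Eif3e (chromosome 15, 43250040 to 43282736), a subunit that lies next to Eif3d and Eif3l in the complex and was first found as the integration site Int6, had 90.8 and 99.7 CPM in controls, against 182 and 164 CPM in KO libraries. Here both KO libraries stood well above both controls (0.86 ± 0.22, edgeR, adjusted p = 0.133), and the estimate was 0.80 to 0.93 when any 1 library was left out. Eif3l (chromosome 15, 79075223 to 79094400) had 104 and 85.5 against 153 and 129 CPM (0.58 ± 0.23, adjusted p = 0.316; edgeR). Eif3a, the largest subunit, had 765 and 760.2 CPM in controls, against 1253 and 693 CPM in KO libraries (0.35 ± 0.30, adjusted p = 0.674). Its 2 KO libraries lay on either side of the controls. Eif3k, which pairs with Eif3l, showed the same split, with 84.2 and 101.6 against 152 and 83.1 CPM.

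Other octamer genes without overlap differed by less. Eif3c had 302 and 286 CPM in controls, against 431 and 306 CPM in KO libraries (0.33 ± 0.24, adjusted p = 0.623), and Eif3h, an MPN-domain subunit, had 151 and 146 against 204 and 159.7 CPM (0.29 ± 0.23). Eif3f, the other MPN-domain subunit, had 99.9 and 73.9 against 126 and 103 CPM (0.40 ± 0.25). Eif3m had 56.6 and 50.2 against 74.7 and 64.5 CPM (0.38 ± 0.24). In these genes the nearest control and KO libraries were close to each other. Of the 50-base words of Eif3h 20.1% also occur in AC122253.2, and of those of Eif3m 17.2% occur in Gm7658.

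The peripheral subunits, among them the module of Eif3b, Eif3g and Eif3i at the mRNA entry side, had a median of 0.43. Eif3b, a scaffold of that module, had 190.1 and 133 CPM in controls, against 302 and 181 CPM in KO libraries (0.58 ± 0.30, adjusted p = 0.433). Eif3g, its RNA-binding partner, had 143 and 126 against 201 and 168 CPM (0.46 ± 0.22, adjusted p = 0.411), without overlap. Eif3i had 95.9 and 57.6 against 131 and 71.0 CPM (0.40 ± 0.35). Eif3d, which can itself bind the cap of some mRNAs, had 138 and 124 against 206 and 120.3 CPM (0.31 ± 0.28), and 37.2% of its 50-base words also occur in Gm17638. The loosely bound eIF3j is encoded by Eif3j1 (0.63 ± 0.38) and Eif3j2 (0.09 ± 0.45). Of the 50-base words in Eif3j2 transcripts of GENCODE M21, 90.8% also occur in Eif3j1, so the reads of these genes may not have been assigned to the right copy.

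**Figure D3:**
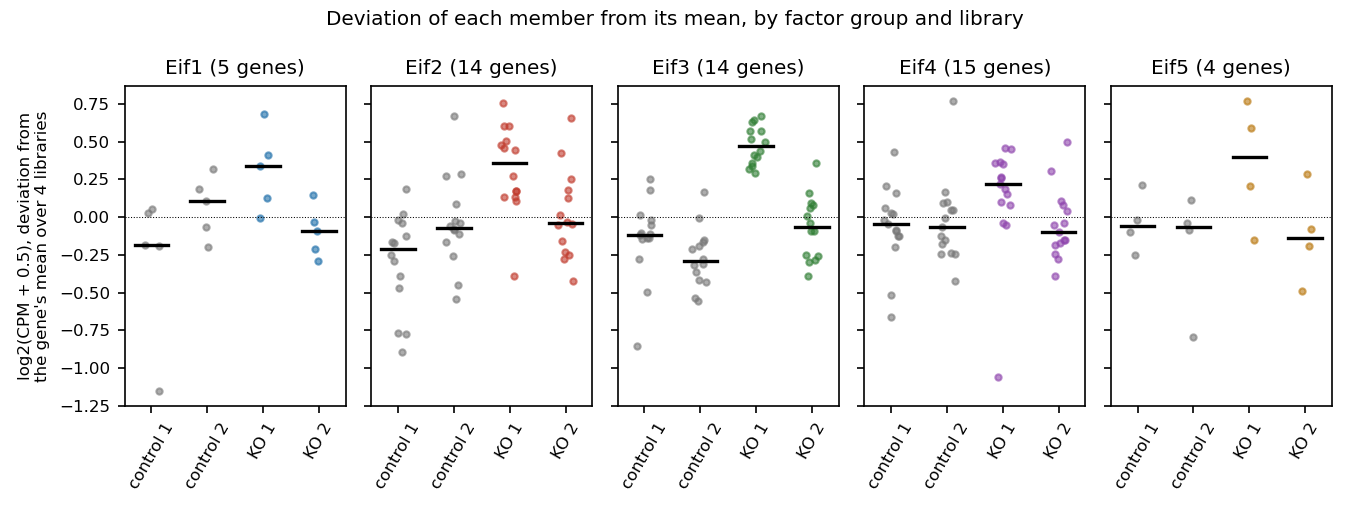
Deviation of each tested member from its own mean over the 4 libraries, in log2(CPM + 0.5), by factor group and library; each point is a gene and black lines are medians. Eif6, a single gene, is not drawn, and the KO 1 median is the highest in each of the 5 groups.

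The eIF4 group, which handles the cap and the mRNA leader, had a median of 0.01 over 15 tested genes, which was -0.02 under RLE scaling, 0.25 without KO replicate 2 and -0.047 without KO replicate 1. The scaffold genes were close between genotypes. Eif4g1 had 443 and 375 CPM in controls, against 511 and 382 CPM in KO libraries (0.13 ± 0.24, adjusted p = 0.893), and its relative Eif4g3 had 280.0 and 333 against 289 and 289.6 CPM (-0.08 ± 0.22). Eif4g2, also called DAP5, lacks the eIF4E-binding part and had 793 and 804 against 836 and 691 CPM (-0.06 ± 0.23, adjusted p = 0.945, 95% interval -0.58 to 0.45).

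No gene of the helicase or its helpers passed the test. Eif4a1, the main eIF4A helicase gene of growing cells, had 265 and 245 CPM in controls, against 396 and 269.6 CPM in KO libraries (0.38 ± 0.25, adjusted p = 0.558), with KO 2 just above control 1. Its paralog Eif4a2 had 186 and 214 against 192 and 205 CPM (-0.01 ± 0.22; 0.02 with library totals). Of the 50-base words in Eif4a1 transcripts, 24.2% also occur in the pseudogene Eif4a-ps4. Eif4a3, the helicase of the exon junction complex and not an initiation factor in the strict sense, had 0.00 ± 0.28, and -0.02 under RLE scaling. Eif4b and Eif4h both stimulate eIF4A. Eif4b had 233 and 226 CPM in controls, against 345 and 283 CPM in KO libraries (0.45 ± 0.22, adjusted p = 0.414), and Eif4h had 153 and 117 against 202 and 169.9 CPM (0.47 ± 0.24, adjusted p = 0.429). Neither overlapped between genotypes, beside 22.8% of all genes with both KO libraries above both controls.

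Among cap-binding genes, Eif4e3 stood apart from its relatives in its estimate. Eif4e, the cap-binding subunit of eIF4F, had 88.9 and 87.0 CPM in controls, against 105 and 72.3 CPM in KO libraries (0.01 ± 0.25; -0.02 under RLE scaling). Eif4e2, or 4EHP, a cap-binding repressor, had 97.0 and 113 against 112 and 102.2 CPM (0.03 ± 0.22). Eif4e3 (chromosome 6, 99621879 to 99692873), an atypical cap-binding protein that competes with eIF4E, had 114 and 144 CPM in control 1 and 2, against 40.1 and 75.7 CPM in KO 1 and 2. Both KO libraries were below both controls (-1.16 ± 0.32, edgeR, adjusted p = 0.169). The estimate was -0.73 without KO replicate 1 and -1.68 without KO replicate 2, and DESeq2 called it (-1.18, adjusted p = 0.0136). Of the 50-base words in its transcripts, 11.5% are shared with Gm20696, whose reads could be counted with it. Whether Eif4e3 differed from Eif4e in its response was not tested. Eif4e1b, a germline cap-binding gene, was not tested, with 14 and 10 reads in the controls and 0 in both KO libraries, where 3 reads would be 0.0861 and 0.0843 CPM.

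The 4E-binding proteins block eIF4E from joining eIF4G. The abundant member Eif4ebp2 had 235 and 246 CPM in controls, against 264 and 209 CPM in KO libraries (-0.02 ± 0.23). Eif4ebp1 and Eif4ebp3 were low, the first with 3.03 and 3.75 against 6.37 and 5.73 CPM (0.83 ± 0.57) and the second with 6.47 and 10.0 against 12.3 and 15.1 CPM (0.72 ± 0.42). In both, the KO libraries were above the controls, as for 22.8% of all genes, and neither passed the test (edgeR, adjusted p = 0.585 and 0.499). Of the 50-base words of Eif4ebp3, 65.5% also occur in AC115631.1, so its reads may not have been assigned to the right gene. Eif4enif1, the 4E transporter that carries eIF4E to the nucleus and to P-bodies, had -0.05 ± 0.25.

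No member of the Eif5 and Eif6 groups passed the test. Eif5, the activator of GTP hydrolysis by eIF2, had 174 and 224 CPM in controls, against 239 and 196 CPM in KO libraries (0.13 ± 0.24, adjusted p = 0.887). Eif5b, the subunit-joining GTPase, had 238 and 228 against 363 and 172 CPM (0.20 ± 0.33, adjusted p = 0.865), so that the 2 KO libraries lay on opposite sides of the controls. Eif5a, the hypusine-containing factor that eases peptide bonds at difficult stretches, had 147 and 72.4 against 215 and 110.2 CPM (0.58 ± 0.39, adjusted p = 0.575). Its paralog Eif5a2 was low, at 6.73 and 7.01 against 6.46 and 8.93 CPM (0.16 ± 0.47). Eif6, which keeps the large subunit from joining too early, had 67.8 and 44.0 against 74.4 and 61.5 CPM (0.29 ± 0.28, adjusted p = 0.731). All 5 overlapped between genotypes, beside 46.8% of all genes tested that did not overlap. The remaining member, Eif2c5, is a noncoding argonaute-related gene in RefSeq that carries the prefix by name only, and had 3 reads in all, in KO 2.

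Per kilobase of exon, the members covered a wide range within the same complex. In control libraries Eif3a had 149 ± 0.607 CPM per kb (SD, n = 2), followed by Eif3g at 122 ± 11.0 and Eif3h at 115 ± 2.35. Eif3f was the lowest of the octamer genes at 34.6 ± 7.30 CPM per kb. Eif3j1 and Eif3j2 were lower still, at 6.58 ± 3.20 and 4.71 ± 1.34. In the controls, Eif4a1 at 144 ± 7.96 lay above Eif4a2 at 62.5 ± 6.001 CPM per kb.

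Among cap-binding genes on this scale, Eif4e3 had the highest control level, 51.3 ± 8.49 CPM per kb, against 17.2 ± 0.271 for Eif4e and 14.0 ± 1.54 for Eif4e2. In the KO libraries Eif4e3 had 23.0 ± 10.0 and Eif4e 17.3 ± 4.48 CPM per kb, and their ranges overlapped. Of the eIF2 alpha kinases Eif2ak3 was the highest in the controls at 28.3 ± 10.8 and Eif2ak4 the lowest at 4.07 ± 1.04 CPM per kb. In the KO these were 18.7 ± 2.12 and 8.26 ± 0.716. Exon lengths came from GENCODE M21 coding transcripts, and the isoforms present in these cells were not resolved.

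**Figure D4:**
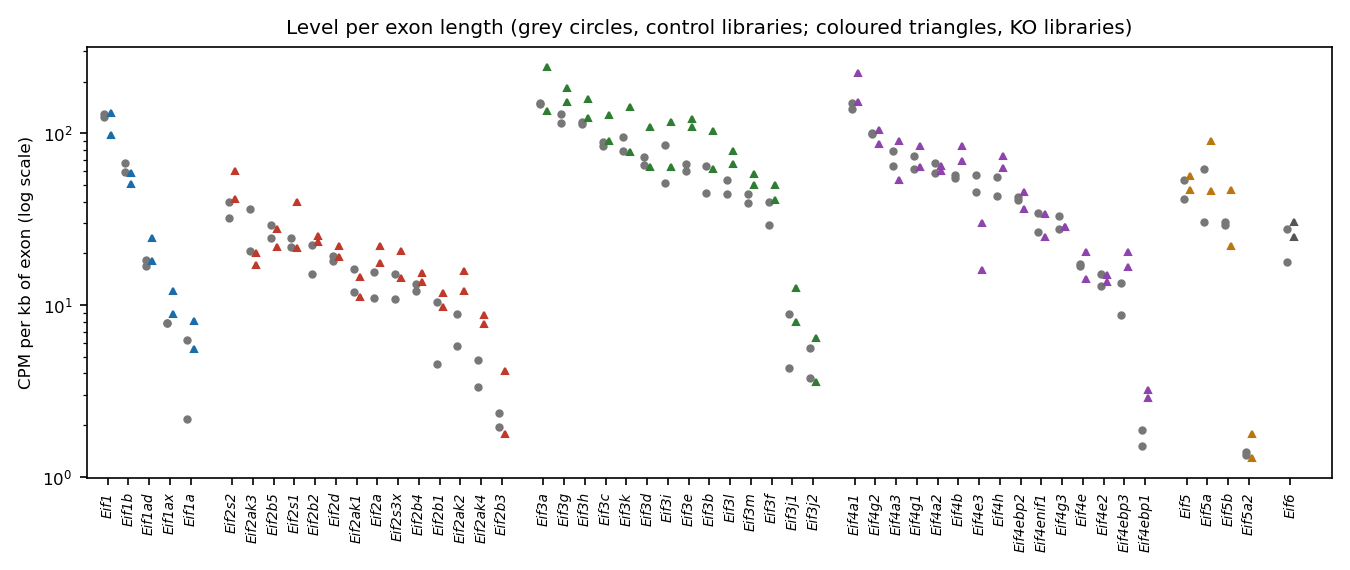
CPM per kb of exon on a log axis for the 53 tested members, ordered within each factor group by control mean; grey circles are the 2 control and coloured triangles the 2 KO libraries. Eif3a, Eif4a1 and Eif1 lie at the top and Eif4ebp1 and Eif5a2 at the bottom.

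Outside the Eif symbols, 7 lists of translation genes held 1 called gene among 50 tested, against 0.451% of all genes tested (0.27% higher). Of 8 tested elongation factor genes, 1 rose, 0 fell and 7 did not pass the test, with a list median of 0.61 against -0.04 for all genes. The one that rose was Eef2k, the calcium- and calmodulin-dependent kinase that phosphorylates and slows elongation factor 2, from 39.2 and 33.3 CPM in the controls to 123 and 111 CPM in the KO. This was a log2 fold change of 1.70 ± 0.24 (edgeR, adjusted p = 0.025), or 3.25-fold. Without KO replicate 1 its call ended, at 1.66 (adjusted p = 0.116). Its substrate gene Eef2 had 1268 and 973 against 1597 and 1396 CPM (0.42 ± 0.25, adjusted p = 0.505). The exchange factor genes Eef1b2, Eef1d and Eef1g lay higher in both KO libraries without passing the test. Their log2 fold changes were 0.99 ± 0.25, 0.75 ± 0.27 and 0.69 ± 0.29 (edgeR, adjusted p = 0.135, 0.273 and 0.337). Eefsec, the selenocysteine elongation factor gene, lay lower in both KO libraries and did not pass the test (-0.57 ± 0.24, edgeR, adjusted p = 0.345). Of the 8 elongation genes, both KO libraries lay above both controls for 6 (75%) and below both for 1 (12.5%). The shares of all genes were 22.8% and 24%.

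The other 6 lists had 0 called genes. Medians were 0.32 for 7 termination and recycling genes, 0.19 for 13 cap and poly(A) partners of eIF4F, 0.13 for 10 genes of mTORC1 signalling, 0.10 for 2 hypusine synthesis genes and 0.26 for 2 mitochondrial initiation factors. For 8 tested genes of the integrated stress response, the programme that follows eIF2 alpha phosphorylation, the median was -0.08. With 1 library left out, this median ranged from -0.26 to 0.11 and that of the mTORC1 list from -0.050 to 0.10, so both turned sign. The ranges were 0.33 to 0.88 for elongation, 0.066 to 0.58 for termination and recycling, 0.067 to 0.31 for eIF4F partners, 0.032 to 0.19 for hypusine synthesis and 0.051 to 0.55 for mitochondrial initiation. The stress response effector gene Atf4 had 79.5 and 59.1 CPM in controls, against 85.2 and 51.8 CPM in KO libraries (-0.02 ± 0.29), and Ddit3, which encodes CHOP, had -0.19 ± 0.29. Impact, an inhibitor of GCN2, had 45.7 and 42.1 against 74.5 and 73.3 CPM (0.75 ± 0.23, edgeR, adjusted p = 0.212). Both of its KO libraries lay above both controls. That was so for 1 of the 8 tested stress response genes (12.5%), against 22.8% of all genes. Of 14 proliferation genes 0 passed the test, and their summed level was 5789 and 4482 CPM in controls, against 4654 and 3467 CPM in KO libraries. Their log2 fold change was above 0 for 0 of the 14, against 47.6% of all genes, with a median of -0.33. Both KO libraries lay below both controls for 5 of them (35.7%, against 24% of all genes).

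No other gene of these lists passed the test. Denr, whose product recycles the small subunit, had 0.63 ± 0.28 (edgeR, adjusted p = 0.361), Abce1, the ATPase that splits ribosomes, 0.45 ± 0.32, and Mcts2 0.32 ± 0.30. Among partners of eIF4F, the poly(A)-binding protein gene Pabpc4 had 0.72 ± 0.33, its regulator Paip2b 0.56 ± 0.26, and Mknk2, a kinase of eIF4E, -0.39 ± 0.23. In the mTORC1 list, Rps6kb2, an S6 kinase gene, had 0.48 ± 0.25, and the complex members Mlst8 and Rptor had -0.61 ± 0.40 and -0.28 ± 0.22. The enzymes that make hypusine on eIF5A, Dhps and Dohh, had 0.16 ± 0.31 and 0.05 ± 0.38. Mtif2 and Mtif3, the mitochondrial initiation factors, had 0.34 ± 0.32 and 0.19 ± 0.29. The stress response genes Sesn2 and Nupr1 were low and uneven between replicates, with -0.79 ± 0.91 and -1.88 ± 2.26. Of 83 tested cytosolic ribosomal protein genes 0 were called. An unadjusted p below 0.05 (edgeR) was found for 52 of them, all higher, or 62.7% against 6.97% of all genes. Their median was 0.70 beside 0.34 for the initiation factors. KO 1 was the highest library for 90.4% of the ribosomal protein genes, against 25% of all genes. Their median log2 difference from the control mean was 0.96 in KO 1 and 0.50 in KO 2.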

How the data were processed

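The authors deposited 1 file per library, holding whole-number counts per gene symbol with no normalisation. HISAT2 made the alignments, per the file headers. The submitters' processing notes also list mm10 and, without order, featureCounts 2.0.8, cutadapt 4.0, HISAT2 2.2.1 and edgeR 3.36.0. What annotation, strandedness and multi-mapping settings were used is not given in the sources here. Per the labels' protocols, libraries were made from total RNA with a SMART-seq kit, so counts are reads, not molecules.

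R 4.3.3 and edgeR 4.0.16 were used on the counts. filterByExpr (minimum count 10, minimum total 15) kept 20389 genes, TMM scaled the libraries (factors 0.962 to 1.06), and the quasi-likelihood test had genotype as its only term. P-values were two-sided and adjusted over all genes tested by Benjamini and Hochberg's method, with calls below 0.05. The SE is the log2 fold change divided by the root of the F statistic. A floor of 3 counts was 0.0843 to 0.252 CPM and covers counting error only. No 2 libraries were duplicates (lowest chi-square per degree of freedom 55.4). Alternatives were DESeq2 1.42.0, other edgeR tests, scalings and filters, the replicate number as a block, and each library left out.

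The members and gene lists were chosen with earlier results of these data known, and no list was tested as a set. All members could be named. Of each translation list, called genes and up to 3 others with the smallest p were named, and of the marker lists called genes. Atf4, Ddit3, Eef2, Eefsec, Cxxc1, Spi1, Notch1 and Cd44 were named beyond this rule, after their values were seen. Exon lengths are the union of exons of coding transcripts in GENCODE M21 basic. Shared 50-base words are given beside the values of some members only. Other members also shared words with other genes, among them Eif1 (19.2%), Eif4a3 (16.5%) and Eif5b (14.3%).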

Additional observations from a re-analysis of the deposited data

How the results depend on the processing

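Precision was limited by 2 libraries per genotype. Of the members, 0 were called with each library left out in turn, with RLE scaling, with library totals only, with edgeR's newer quasi-likelihood fit and with a filter of 5 CPM in 2 libraries. DESeq2 (977 all-gene calls), edgeR's likelihood ratio test (997) and no filter (920) called 3 members each, Eif3e, Eif2ak4 and Eif4e3, and 2 genes of the translation lists, while the 5 CPM filter gave 228 all-gene calls. The replicate numbers are no stated pairing, and the deviations of same-numbered libraries correlated at 0.0731. With the replicate block there were 1599 all-gene calls, 4 of them members (Eif2ak2 besides those 3) and 5 from the translation lists. The cause of these differences was not tested.

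With 1 library left out, all-gene calls ranged from 9 without KO replicate 1 to 619 without control replicate 2 (103 without KO replicate 2 and 555 without control replicate 1), and calls in the translation lists from 0 to 1. The median log2 fold change ranged from 0.073 to 0.55 over all members, 0.073 to 0.47 for Eif1, 0.16 to 0.67 for Eif2, 0.17 to 0.68 for Eif3, -0.047 to 0.25 for Eif4, 0.032 to 0.45 for Eif5 and 0.0036 to 0.63 for Eif6. Members that turned sign numbered 4 and 7 without control replicates 1 and 2, and 13 and 7 without KO replicates 1 and 2. The genes that turned ranged as follows: Eif4e2 -0.081 to 0.14, Eif4enif1 -0.25 to 0.15, Eif5 -0.043 to 0.32, Eif2b5 -0.27 to 0.040, Sesn2 -2.02 to 1.27, Mtif2 -0.053 to 0.88, Eif4ebp2 -0.17 to 0.14, Eif4a3 -0.38 to 0.33, Eif4a2 -0.11 to 0.089, Eif3j2 -0.37 to 0.46, Eif4e -0.25 to 0.25, Eif4g3 -0.20 to 0.048, Eif2ak1 -0.34 to 0.12, Dohh -0.17 to 0.30, Eif5b -0.40 to 0.64, Eif2s1 -0.074 to 0.77, Eif3d -0.088 to 0.65, Eif4g1 -0.062 to 0.32, Eif3a -0.10 to 0.72, Eif2b3 -0.24 to 0.95, Eif3i -0.072 to 0.81, Eif3k -0.13 to 0.71, Eif1 -0.34 to 0.046, Eif5a2 -0.087 to 0.42, Eif4g2 -0.17 to 0.069.

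Sign also turned for estimates near 0 under other settings. Eif4a3 and Eif4e were -0.020 and -0.016 with DESeq2, -0.020 and -0.016 with RLE scaling, -0.081 and -0.074 with the 5 CPM filter and -0.037 and -0.017 with the replicate block. Eif4a2 was 0.022 with library totals and 0.014 without a filter, Eif4ebp2 0.0023 without a filter, and Eif4e2 and Dohh -0.052 and -0.030 with the 5 CPM filter. The Eif4 group median was -0.016 with DESeq2, -0.016 with RLE scaling, -0.074 with the 5 CPM filter and -0.010 with the replicate block.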
